A study of Rattus norvegicus with 15 samples.

Results

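The cyclooxygenase genes Ptgs1 and Ptgs2 were followed through 15 RNA sequencing libraries of cultured rat marrow stromal cells. They were chosen by identifier, ENSRNOG00000007415 for Ptgs1 and ENSRNOG00000002525 for Ptgs2, and are 2 of the 34480 rows of the count table. Both passed the filter on low counts, as 2 of 15543 genes tested. The table carries no gene symbols, and the reference tables used here held 0 rat Ensembl identifiers, so the pairing of each identifier with its symbol was taken as given and could not be checked against them.

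The cells were bone mesenchymal stem cells from marrow of the outbred rat strain Sprague-Dawley, at passage 3 to 6, grown until confluent or beyond. The Control group was left untreated, the Adi group was cultured with adipogenic differentiation basal medium and the Ost group with its osteogenic counterpart. Adi_ASA and Ost_ASA cells received the respective medium with aspirin (acetylsalicylic acid). Each of these 5 groups had 3 libraries. The sources used here give neither the dose of aspirin nor the days in culture nor the ingredients of the media. They also do not say what a replicate was (an animal, a culture or a dish), so a p-value here reflects only how much these libraries varied, possibly for technical reasons. Any difference between groups, also one with aspirin, is therefore one between cultures that may also differ in age and batch. These cannot be told apart. Because genes other than these 2 could not be looked up by symbol, the labelled cell type was not checked against its markers, and the other genes of the prostaglandin pathway are not described.

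Cyclooxygenases, also called prostaglandin endoperoxide synthases, turn arachidonic acid released from membranes into the common precursor of prostaglandins and thromboxane. Ptgs1 encodes the form that many tissues make continuously, and Ptgs2 the form that growth factors, cytokines and mechanical load can induce. Prostaglandin E2 made by stromal and bone-forming cells is known to act on both bone formation and bone resorption. Aspirin blocks both enzymes by acetylating a serine in the channel through which arachidonic acid enters. That block is on the protein, and counts of reads measure neither enzyme activity nor prostaglandin output.

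The genes moved apart between the media, as described further on, and the sequences upstream of them are shown for reference. A link between these sequences and the levels was not tested. Both come from RefSeq (GRCr8, plus strand, matched by symbol), cover the 250 bases before the annotated start and are read 5′ to 3′. Ptgs1 is at chr3:39981169-39981418 and Ptgs2 at chr13:64713813-64714062. This assembly is not the build named for the counts (Rnor_6.0) and served only for the sequences. Capitals mark matches to any of 7 motifs searched on both strands.
Ptgs1: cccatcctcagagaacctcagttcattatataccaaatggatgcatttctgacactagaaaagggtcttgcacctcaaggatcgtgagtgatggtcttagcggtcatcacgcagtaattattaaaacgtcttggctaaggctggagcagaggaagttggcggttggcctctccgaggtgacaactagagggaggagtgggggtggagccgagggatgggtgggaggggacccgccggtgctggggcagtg
Ptgs2: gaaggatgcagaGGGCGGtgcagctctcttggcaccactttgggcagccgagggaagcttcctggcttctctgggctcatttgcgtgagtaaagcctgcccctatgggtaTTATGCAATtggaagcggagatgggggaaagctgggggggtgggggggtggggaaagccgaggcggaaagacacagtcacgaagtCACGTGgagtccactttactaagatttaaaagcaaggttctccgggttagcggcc

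The Ptgs2 window held 3 matches, none overlapping another, and the Ptgs1 window held 0. How often other windows hold 3 or 0 matches was not counted. The first match in Ptgs2 is a GC box (GGGCGG), from 238 to 233 bases before the start, a motif found in 30.5% of the 33469 rat windows of the same length. Next, from 140 to 132 bases before the start, lies a match to the C/EBP motif TTNNGCAAT, found in 2.04% of windows. An E-box, CACGTG, which reads the same on both strands, lies from 55 to 50 bases before the start and occurs in 5.59% of windows. The other motifs searched, with no match in either gene, were the TATA box TATAAA (12.9% of windows), the cAMP response element TGACGTCA (1.59%), the nuclear receptor half-site AGGTCA (14.1%) and the Runx motif TGTGGT (14.5%). G and C made up 54.4% of the Ptgs1 window and 57.2% of the Ptgs2 window, against a median of 51.2% over all windows. A match is a description of the letters and not a measured binding site, and a missing match says only that those letters are not in this window.

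The libraries held 18373289 to 22817858 counted reads, and replicates differed by more than counting noise in every pair (chi-square per degree of freedom 5.41 to 13.5). Ptgs1 was covered by 1951 to 7052 reads per library and Ptgs2 by 308 to 5079. Levels are given as CPM, counts per 1000000 reads after TMM scaling of the libraries. CPM values of the genes are not compared with each other, since they are not corrected for gene length. In such bulk libraries, fewer cells expressing a gene and less RNA of it per cell cannot be told apart.

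Ptgs1, the gene of the continuously made enzyme, was higher in osteogenic medium than in untreated cells. In Control, the libraries 1, 2 and 3 had 140.1, 127 and 134 CPM. In Ost they had 252, 266 and 273 CPM, and all lay above all Control libraries. The mean rose 1.97-fold, from 133.7 ± 6.65 CPM (SD, n = 3) to 263.8 ± 10.3 (log2 fold change 0.98, SE 0.06, edgeR adjusted p = 1.12e-11). Of all genes tested, 68.9% passed the test in this comparison and 72.6% had libraries that did not overlap, and both cyclooxygenase genes did so. A larger log2 change in either direction was found for 30.7% of genes.

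In adipogenic medium Ptgs1 was slightly lower than in Control. The 3 Adi libraries had 123, 107 and 116 CPM, so the highest Adi library lay just below the lowest Control library. The mean of 115.5 ± 8.15 CPM (SD, n = 3) corresponds to a log2 fold change of -0.21 (SE 0.06, edgeR adjusted p = 0.00987), and 62.6% of genes changed more. In this comparison 48.9% of all genes passed the test and 57.5% had libraries that did not overlap. The call was lost without Control replicate 1 (-0.18, adjusted p = 0.0524) and without Adi replicate 2 (-0.16, adjusted p = 0.0668), in a range of 1.52e-05 to 0.0668 over the alternatives. With libraries scaled by their size alone the difference was -0.40, while the median of all genes moved from -0.01 to -0.20. The gene with most reads took 6.48% to 6.82% of an Adi library and 3.69% to 3.73% of a Control library, and its part in the difference was not tested.

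Ptgs2 was lower in both media than in Control, and lowest in osteogenic medium. The Control libraries had 205, 237 and 187 CPM, the Adi libraries 75.8, 69.6 and 65.9 CPM, and the Ost libraries 21.1, 20.8 and 24.4 CPM. The 3 groups did not overlap, so that the order Control, Adi, Ost held for every library. Libraries did not overlap for 57.5% of all genes in Adi versus Control, 72.6% in Ost versus Control and 69.8% in Adi versus Ost.

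Ptgs2 fell 2.98-fold in Adi, from 209.8 ± 25.4 CPM (SD, n = 3) to 70.4 ± 4.97 (log2 fold change -1.57, SE 0.15, edgeR adjusted p = 4.02e-06). A fall of that size or more was rare among the genes tested, with 3.66% of them lower still. In Ost it fell to 22.1 ± 2.00 CPM, 9.49-fold below Control (log2 fold change -3.25, SE 0.17, edgeR adjusted p = 3.34e-09), and 4.19% of genes had a lower log2 fold change. Both comparisons use the same Control libraries. The fall of Ptgs2 kept its call under all 14 alternatives in each medium, with log2 fold changes of -1.76 to -1.48 in Adi and -3.32 to -3.15 in Ost.

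**Figure D1:**
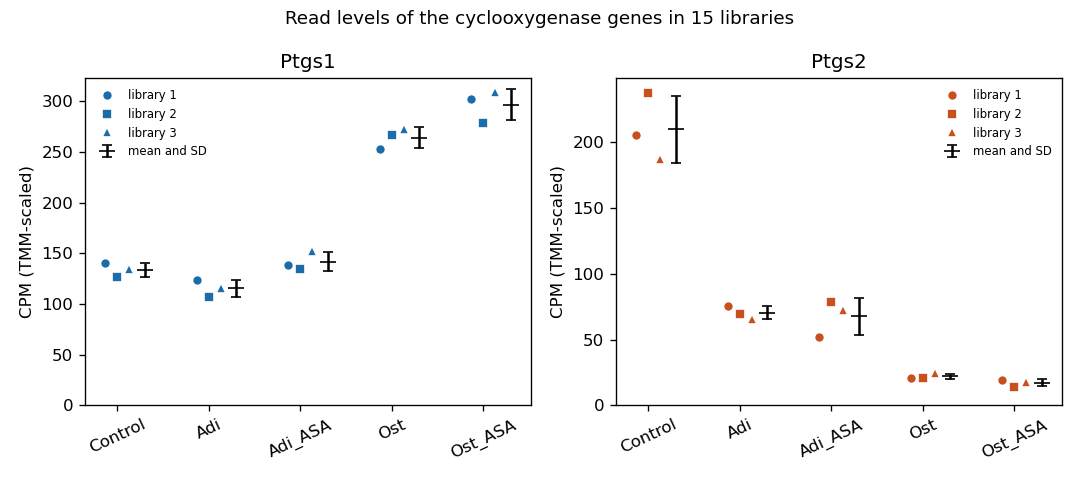
Level of Ptgs1 (left) and Ptgs2 (right) in CPM after TMM scaling, on axes that start at 0, for each of the 3 libraries of the 5 groups, with the group mean and SD in black. Ptgs1 is at 252 to 309 CPM in the osteogenic groups and 107 to 152 elsewhere, while Ptgs2 goes from 187 to 237 CPM in Control down to 14.3 to 24.4 in the osteogenic groups.

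The media were also compared directly, and the genes differed between them in opposite directions. Ptgs1 was 2.28-fold lower in Adi than in Ost (log2 fold change -1.19, SE 0.06, edgeR adjusted p = 5.68e-13). Ptgs2 was 3.18-fold higher in Adi than in Ost (log2 fold change 1.67, SE 0.16, edgeR adjusted p = 1.9e-06). Neither gene had overlapping libraries, in a comparison in which 66.5% of all genes passed the test and 69.8% did not overlap. With aspirin in both media the picture was alike: Ptgs1 was 2.09-fold lower in Adi_ASA than in Ost_ASA (log2 fold change -1.06, SE 0.06, edgeR adjusted p = 3.43e-12) and Ptgs2 3.92-fold higher (log2 fold change 1.97, SE 0.17, edgeR adjusted p = 4.91e-07), where 65.7% of genes passed and 69.1% did not overlap.

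**Figure D2:**
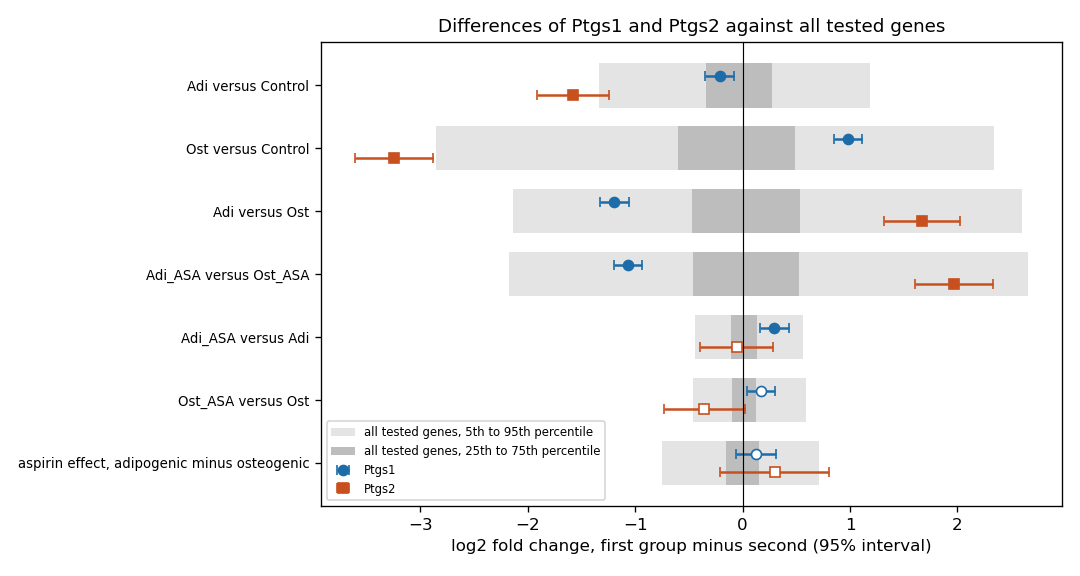
Log2 fold change (first group minus second) of Ptgs1 (circles) and Ptgs2 (squares) with its 95% interval in 7 comparisons, filled where the edgeR adjusted p was under 0.05 and open where it was not. Grey bars give the 25th to 75th and the 5th to 95th percentile of all tested genes, and Ptgs2 lies below the 5th percentile (-1.34 and -2.86) against Control in both media.

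Aspirin was added to each medium to ask how it acts on cells being induced, and these are the genes whose protein products it blocks. In adipogenic medium Ptgs1 rose modestly with aspirin. The Adi_ASA libraries had 138, 134 and 152 CPM, all above the Adi libraries at 107 to 123 CPM. The mean went from 115.5 ± 8.15 to 141.8 ± 9.41 CPM (SD, n = 3), 1.23-fold higher with a 95% interval of 1.12 to 1.35 (log2 fold change 0.30, SE 0.06, edgeR adjusted p = 0.0102). Here 4.34% of all genes passed the test and 23.5% had libraries that did not overlap. The call was lost without Adi replicate 2 (0.25, adjusted p = 0.0683) and without Adi_ASA replicate 3 (0.24, adjusted p = 0.0867), in a range of 0.00129 to 0.0867 over the alternatives. With aspirin Ptgs1 stood at 1.06 times its Control level (95% interval 0.967 to 1.16, edgeR adjusted p = 0.304), with overlapping libraries, in a comparison in which 44.4% of genes passed. The lower level in Adi than in Control and the rise with aspirin use the same Adi libraries. They are not independent, and both calls were lost without Adi replicate 2.

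Ptgs2 showed no difference with aspirin in adipogenic medium that exceeded its spread. The Adi_ASA libraries had 52.1, 78.6 and 72.5 CPM, with library 1 below and library 2 above all Adi libraries. The mean was 67.7 ± 13.9 CPM (SD, n = 3) against 70.4 ± 4.97 in Adi, a ratio of 0.963 with a 95% interval of 0.762 to 1.22 (log2 fold change -0.06, SE 0.15, edgeR adjusted p = 0.906). The direction rested on single libraries: without Adi_ASA replicate 1 the log2 fold change was 0.10 and without Adi replicate 1 it was 0.00036.

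In osteogenic medium with aspirin, the Ptgs1 libraries had 302, 279 and 309 CPM and lay above all Ost libraries. The mean was 296.5 ± 15.6 CPM (SD, n = 3) against 263.8 ± 10.3, a ratio of 1.12 with a 95% interval of 1.03 to 1.23, which did not pass after adjustment over all genes (log2 fold change 0.17, SE 0.06, edgeR adjusted p = 0.174). For Ptgs2 the libraries had 19.5, 14.3 and 18.0 CPM, all below the Ost libraries at 20.8 to 24.4. Its mean of 17.3 ± 2.67 CPM against 22.1 ± 2.00 is a ratio of 0.782 with a 95% interval of 0.603 to 1.02 (log2 fold change -0.35, SE 0.17, edgeR adjusted p = 0.379). In this comparison 3.63% of all genes passed the test and 18.5% had libraries that did not overlap, so that groups without overlap were common where calls were not.

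Whether the response to aspirin differed between the media was tested as an interaction, in which 2.83% of all genes passed. For Ptgs1 the log2 change in adipogenic medium exceeded that in osteogenic medium by 0.13 (SE 0.09, 95% interval -0.06 to 0.31, edgeR adjusted p = 0.603). For Ptgs2 the difference was 0.30 (SE 0.23, 95% interval -0.21 to 0.80, edgeR adjusted p = 0.651). Neither passed, and the intervals leave room for differences as large as the aspirin effects themselves. The passing test for Ptgs1 in adipogenic medium alone is thus no sign that its response was particular to that medium. Averaged over both media, a contrast added after the values were seen, Ptgs1 was 1.17-fold higher with aspirin (95% interval 1.10 to 1.25, log2 fold change 0.23, SE 0.05, edgeR adjusted p = 0.00406), higher than every library without aspirin of the same medium in 6 of 6 libraries. In that contrast 4.88% of all genes passed, in either direction. All aspirin libraries lay above those without aspirin in both media for 1.81%, a share counted only in the direction seen for Ptgs1. Because the contrast was picked from these values, its p-value and this share describe them and are no independent support. The average for Ptgs2 was -0.20 on the log2 scale (SE 0.11, 95% interval -0.46 to 0.05, edgeR adjusted p = 0.39).

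Ranked by group mean, Ptgs1 went from Ost_ASA through Ost, Adi_ASA and Control down to Adi. Ost_ASA and Ost did not pass the test against each other, nor did Adi_ASA and Control, while Ost and Adi_ASA differed 1.86-fold (edgeR adjusted p = 6.14e-11, where 65.7% of genes passed). For Ptgs2 the order was Control, Adi, Adi_ASA, Ost and Ost_ASA. Control stood apart from Adi, and Adi_ASA was 3.07-fold above Ost (edgeR adjusted p = 2.6e-06), but neither pair of a medium with and without aspirin passed.

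The balance of the genes was followed as the number of Ptgs1 reads per Ptgs2 read within each library, which does not depend on how a library is scaled. Its absolute size includes the unequal lengths of the transcripts, and only its change between groups is read here. In Control the ratio was 0.683, 0.535 and 0.717 in libraries 1 to 3. In Adi it was 1.63, 1.54 and 1.76, and in Ost 12.0, 12.8 and 11.2. The ratio was thus 2.56-fold higher in Adi than in Control and 18.7-fold higher in Ost (as geometric means), with no overlap between any of the 3 groups. Each of these differences from Control gave p = 0.1 in an exact two-sided permutation test, which is the smallest value that 3 libraries against 3 allow. Ost libraries lay apart from Control and from Adi in opposite directions for the 2 genes. The ratio therefore had to separate there and adds no support to the single genes. How often ratios of other gene pairs separate was not counted. Single genes did not overlap for 57.5% in Adi versus Control, 72.6% in Ost versus Control and 69.8% in Adi versus Ost.

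With aspirin, the ratio in osteogenic medium was 15.5, 19.5 and 17.2, above all Ost libraries and 1.44-fold higher on average (p = 0.1 by the same exact test, again its smallest value). This separation was fixed by the single genes, since Ptgs1 lay above and Ptgs2 below all Ost libraries. It restates those 2 differences, neither of which passed after adjustment. In adipogenic medium with aspirin the ratio was 2.66, 1.71 and 2.10, and library 2 fell within the range of the Adi libraries (1.29-fold, p = 0.2 by that exact test). Within its own medium, an aspirin library had a higher ratio than every library without aspirin in 5 of 6 cases. In osteogenic medium this followed from the levels of the 2 genes. How often other gene pairs have such ratios was not counted. The log2 change with aspirin in adipogenic medium minus that in osteogenic medium was -0.16 (SE 0.22, from the library SDs). This difference was not tested and is no sign of a response particular to a medium. Left out in turn, Adi_ASA replicates 1 and 2 took the log2 difference in adipogenic medium from 0.37 to 0.21 and to 0.53.

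**Figure D3:**
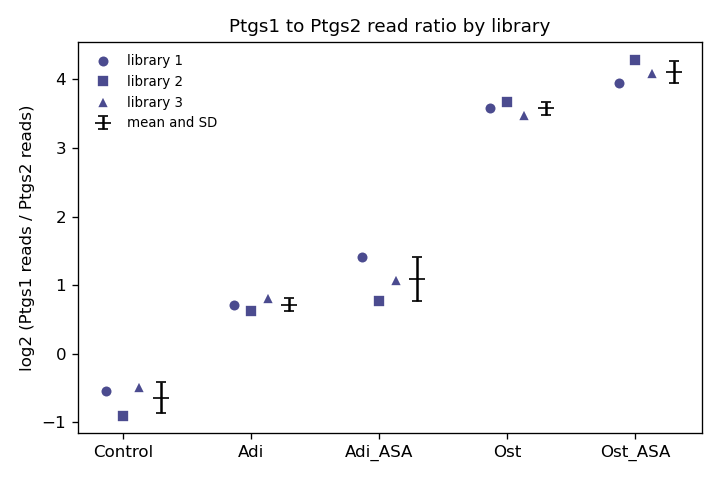
Log2 of the number of Ptgs1 reads per Ptgs2 read (0.5 read added to each) in every library, with the group mean and SD in black. Control lies at -0.64 on average, Adi and Adi_ASA at 0.71 and 1.09, and Ost and Ost_ASA at 3.58 and 4.11.

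The genes whose levels ran most like each cyclooxygenase gene were found by Pearson correlation of log2 CPM over the 15 libraries, among 12666 Ensembl genes averaging 1 CPM or more. These values describe the libraries, which share their media, and are not a test. For Ptgs1 they were ENSRNOG00000001229 (r = 0.995) and ENSRNOG00000009615 (r = 0.993). ENSRNOG00000001229 went from 406 ± 23.0 CPM (SD, n = 3) in Control to 350.5 ± 27.2 in Adi and 439 ± 38.2 in Adi_ASA, and to 1114 ± 106 in Ost and 1337 ± 135 in Ost_ASA. Its order of groups is that of Ptgs1, with a wider span. ENSRNOG00000009615 kept the same order over a narrower span, from 54.9 ± 3.21 CPM in Adi to 105.8 ± 2.06 in Ost_ASA.

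For Ptgs2 the most alike were ENSRNOG00000038202 (r = 0.993) and ENSRNOG00000000593 (r = 0.991). ENSRNOG00000038202 was a gene of few reads, with 7.02 ± 0.894 CPM (SD, n = 3) in Control, 1.28 ± 0.191 in Adi, 1.54 ± 0.571 in Adi_ASA, 0.20 ± 0.0629 in Ost and 0.0893 ± 0.0437 in Ost_ASA. ENSRNOG00000000593 went from 85.4 ± 1.41 CPM in Control to 58.5 ± 0.887 in Adi, 55.2 ± 4.15 in Adi_ASA, 32.3 ± 0.766 in Ost and 28.2 ± 1.66 in Ost_ASA, the order of Ptgs2. After subtracting the group means, the correlations over the 15 libraries were 0.72 and 0.77 with Ptgs1 and 0.73 and 0.72 with Ptgs2. These were selected among many genes and share library scaling, so their size is no finding. By rank correlation none of these 4 was among the first 2, and all were among the first 20 for their cyclooxygenase gene. With a prior count of 0.5 in place of 2, both genes named for Ptgs1 but only 1 of those named for Ptgs2 stayed among the first 2.

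**Figure D4:**
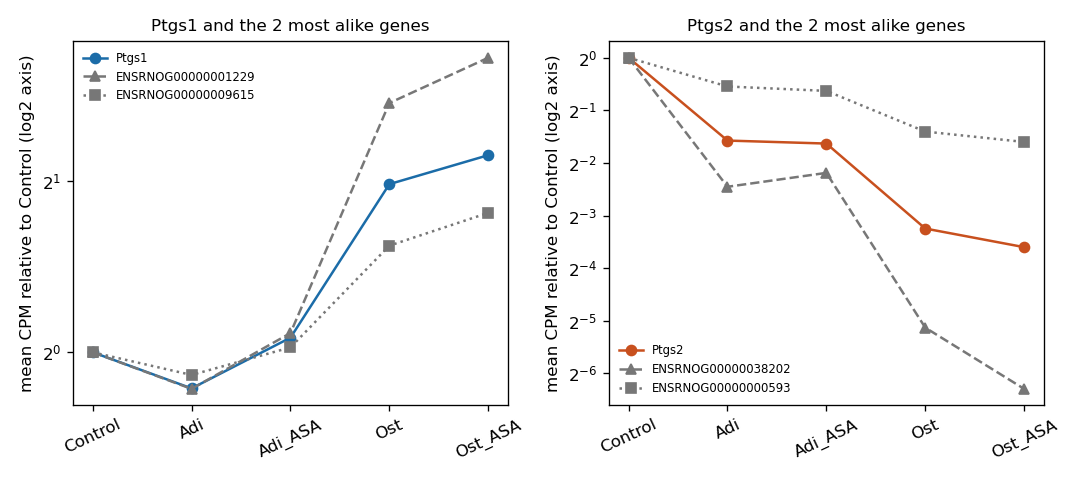
Mean CPM relative to Control on a log2 axis for Ptgs1 (left) and Ptgs2 (right), each with the 2 genes most alike by correlation over 15 libraries, with lines that only join the 5 group means of a gene. ENSRNOG00000001229 spans more and ENSRNOG00000009615 less than Ptgs1, and ENSRNOG00000038202 more and ENSRNOG00000000593 less than Ptgs2.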

How the data were processed

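RNA was sequenced in 15 libraries. The deposited table holds read counts per gene, whole numbers without normalisation. The build Rnor_6.0 and the tools DESeq 1.18.0, HISAT2 2.0.4 and HTSeq 0.9.1 are named per the submitters' processing notes. The sources used here give neither their roles and settings nor the annotation nor any use of strand. Each column matched 1 sample title. Counts were fitted with edgeR 4.0.16 in R 4.3.3 (filterByExpr, TMM, glmQLFit with robust estimation, glmQLFTest) in 1 model of the 5 groups over 15543 genes, with Benjamini-Hochberg adjustment and a threshold of 0.05. The standard error is the log2 fold change divided by the square root of F. The model was also run on counts simulated for Adi_ASA versus Adi with few genes changed. That run does not probe the comparisons of media, in which most or nearly as many genes differed. The read ratio (0.5 added to each count) was tested by exact permutation in scipy 1.17.1. Alternatives were DESeq2 1.42.0, limma-voom 3.58.1, other scalings and filters, fits of the compared groups alone, a replicate block and leaving out each library. Genes to name were the 2 cyclooxygenases and, for each, the 2 most alike by correlation. The members, lists and tests were chosen with earlier results of these data known. Lists of pathway and marker genes fixed by symbol could not be matched and were not used.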

Additional observations from a re-analysis of the deposited data

How the results depend on the processing

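Of 320 values of the cyclooxygenase genes under alternatives (22 results), 312 kept the direction and the side of the threshold. With libraries scaled by size alone, the log2 fold change of Ptgs2 for Adi_ASA versus Adi went from -0.06 to 0.00067 and that of Ptgs1 for Adi_ASA versus Control from 0.08 to -0.050, neither of which passed in either scaling. Leaving out 1 library at a time gave -0.26 to -0.16 for Ptgs1 in Adi versus Control, 0.24 to 0.35 for Ptgs1 in Adi_ASA versus Adi and -0.18 to 0.10 for Ptgs2 in Adi_ASA versus Adi. It gave 0.07 to 0.18 for the interaction of Ptgs1, 0.18 to 0.46 for that of Ptgs2 and -0.27 to -0.13 for the mean aspirin effect on Ptgs2, none of which passed the test in any of these fits. For the log2 read ratio it gave 0.21 to 0.53 in Adi_ASA versus Adi. The cause was not tested. Scaling by size alone also moved the share of calls that were higher from 50.1% to 25.6% in Adi versus Control, from 57.3% to 81.8% in Adi_ASA versus Adi, from 49.6% to 38.9% in Adi versus Ost, from 50.8% to 30.7% in Adi_ASA versus Control, from 63.4% to 74.7% for the mean aspirin effect and from 42.3% to 68.6% for the interaction. The number of genes called went from 675 to as low as 285 in Adi_ASA versus Adi, from 564 to 338 in Ost_ASA versus Ost, from 440 to 289 for the interaction and from 759 to 505 for the mean aspirin effect when 1 library was left out. Adding the replicate number as a block changed no call of either gene (Ptgs1 in Adi_ASA versus Adi 0.30, edgeR adjusted p = 0.00674). Deviations from the group means correlated at -0.07 to 0.04 over 30 pairs of same-numbered libraries and at -0.08 to 0.08 over 60 other pairs. By this measure 3 of 15 libraries were closest to their own number. Deviations from means of 3 libraries are noisy, so a shared origin could be missed. Replicate numbers were treated as names only because the labels do not say what they share.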

Other observations

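Among genes averaging 10 CPM or more, the coefficient of variation of Ptgs2 between replicates was 12.1% in Control, 7.05% in Adi, 20.5% in Adi_ASA, 9.04% in Ost and 15.5% in Ost_ASA, and 7.65%, 35.1%, 1.93%, 19.6% and 6.35% of these genes varied more. Ptgs1 varied by 3.90% to 7.06% within the groups, against group medians of 4.63% to 6.61% over the same genes. The comparison genes were not matched for level, and each value rests on 3 libraries. Ptgs2 had 397 to 550 reads per library in Ost and 308 to 438 in Ost_ASA, where counting noise weighs more. In Adi both genes varied alike, and a difference in spread between them was not tested.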
